A study of Mus musculus with 40 samples.

Results

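Liver messenger RNA of 9 zonated hepatocyte metabolism genes was followed across short bowel syndrome and its treatment in mice: the urea cycle enzymes Cps1, Otc, Ass1 and Asl, the gluconeogenesis enzymes Pck1 and Fbp1, the amino acid breakdown enzymes Hal and Tat, and glutamine synthetase Glul. They were chosen by name, and all 9 were found among the 15958 genes of the deposited table. Bulk RNA sequencing values came from 18 livers of male wild-type C57BL/6 mice that were 8 weeks old at surgery. Of these, 5 mice had a sham operation (transection and re-anastomosis) and vehicle, 8 had small bowel resection (SBR) and vehicle, and 5 had SBR and the liver X receptor agonist WUSTL0717 by mouth at 30 mg/kg daily. The labels give 50 to 60% of the small bowel as removed, and the methods of the study name a larger share. Treatment began 3 weeks after surgery and lasted 7 weeks, and every group, sham included, had been operated on and was fed a liquid diet. The study looked for agonists whose action stays in the gut and took WUSTL0717, an existing compound, as one of them. The comparisons ask how the liver changed with resection and with this drug. Duodenum and ileum of the same design were also sequenced, with 3 sham, 4 SBR vehicle and 4 SBR WUSTL0717 libraries each.

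Hepatocytes change their enzymes along the lobule, from the portal tract, where blood enters from the gut, to the central vein. Periportal hepatocytes turn ammonia into urea and amino acids into glucose. The last hepatocytes around the central vein use Glul to fix the ammonia that is left into glutamine. Glucagon, glucocorticoids and amino acid supply control most of these genes.

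Values are log2 TPM (transcript abundance scaled by gene length and library size) after a batch adjustment by the authors that rescales each gene within a batch, so log2 differences are not raw fold changes, and levels were not compared between genes, nor between tissues except for the check of marker genes given here. The depth of the libraries is unknown, since the table holds no counts. A gene was called when the adjusted p of the limma fit over all 15901 tested genes was under 0.05. The median gene of a library lay between 3.06 and 3.37 in sham livers, between 3.14 and 3.78 after SBR with vehicle, and between 3.44 and 3.74 with WUSTL0717. Each difference is therefore given as deposited and relative to the library median, that is, after that median was subtracted from every value of the library. As deposited minus relative, every difference shifted by 0.31 for SBR vehicle against sham, by 0.30 for SBR WUSTL0717 against sham and by -0.01 between the SBR groups. All 6 hepatocyte markers (Alb, Ttr, Apoa2, Serpina1c, Fgb and Apoh) had a higher mean in liver than in intestine, but so did all 6 cholangiocyte and all 5 pancreatic acinar markers, and the batch adjustment limits what this shows of tissue identity. Library 2 of the SBR vehicle group stood apart, with albumin (Alb) at 8.16 against 9.19 to 9.54 in the other 7, and had the lowest value of its group for 7 of the 9 genes. Sham library 2 had the lowest value of its group for 8 of the 9. Library 7 of the SBR vehicle group held pancreatic acinar transcripts, with the summed linear level of 5 markers at 3117 against 22.2 to 33.2 in the other 7. In bulk tissue, fewer hepatocytes and less RNA per hepatocyte cannot be told apart.

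RefSeq promoters (GRCm38.p6) were at hand for 7 of the 9 genes, and those of Hal, Otc and Pck1 are shown because these genes had the largest differences after SBR. Each run is the 250 bases before the transcription start, 5′ to 3′ on the gene's strand, and capitals mark the motifs found. The Hal window is chr10:93488518-93488767 on the plus strand, that of Otc chrX:10252055-10252304 on the plus strand and that of Pck1 chr2:173152823-173153072 on the plus strand.
Hal: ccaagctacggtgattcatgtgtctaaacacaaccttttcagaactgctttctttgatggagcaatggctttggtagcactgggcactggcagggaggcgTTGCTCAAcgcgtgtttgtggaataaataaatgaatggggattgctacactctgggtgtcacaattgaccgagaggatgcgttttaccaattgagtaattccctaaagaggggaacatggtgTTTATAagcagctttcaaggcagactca
Otc: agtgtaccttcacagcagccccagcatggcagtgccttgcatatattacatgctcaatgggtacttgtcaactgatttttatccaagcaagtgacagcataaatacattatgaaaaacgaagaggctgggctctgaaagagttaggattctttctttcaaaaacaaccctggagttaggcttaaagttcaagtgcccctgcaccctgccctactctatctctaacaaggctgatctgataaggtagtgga
Pck1: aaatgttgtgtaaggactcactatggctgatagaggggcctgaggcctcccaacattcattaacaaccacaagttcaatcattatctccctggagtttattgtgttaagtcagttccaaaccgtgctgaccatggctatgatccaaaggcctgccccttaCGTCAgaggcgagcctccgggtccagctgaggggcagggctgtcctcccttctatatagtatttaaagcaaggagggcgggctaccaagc
Letters of 4 motifs were searched on both strands in 32851 promoter windows of this length. The first motif, spelled TATAAA, is that of the TATA-binding protein and was held by 12.4% of them. The core of the cAMP response element, TGACG, was held by 17.8%. The C/EBP-type motif, spelled TTGCNNAA, was held by 9.56%, and the glucocorticoid receptor motif, spelled TGTTCT, by 16.1%. Among the 7 windows of the described genes, Hal held the C/EBP-type letters 150 bases and the first motif on the minus strand 28 bases before the start. Pck1 held the TGACG letters on the minus strand 90 bases before the start, and the other 5 windows held none of the 4. These are matches of letters and not binding sites.

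After SBR, all 9 genes had lower means in the liver than in sham. As deposited, 6 of the 9 genes fell and none rose, and the median difference of the 9 was -0.55, beside 0.25 for all genes tested. Of all genes tested, 4.47% were called lower and 37.4% higher. The differences ran from -1.60 for Hal to -0.19 for Glul, and Ass1, Tat and Glul did not pass the test. Relative to the library median, all 9 fell, with differences of -1.91 to -0.50, where 28.8% of all genes were called lower (4580 lower and 3245 higher, against 710 lower and 5953 higher as deposited). Without SBR vehicle library 2, or without library 7, these counts were again 6 and 9. The 8 SBR vehicle livers lay wholly below the 5 sham livers for Otc, Fbp1 and Hal as deposited, a separation that 1.62% of all genes showed. Relative to the median, 8 of the 9 genes separated in this way, Tat being the exception, against 15.4% of all genes.

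With WUSTL0717 after SBR, all 9 genes had higher means than with vehicle. Otc and Fbp1 rose as deposited, and the median difference of the 9 was 0.51, beside 0.02 for all genes. Of all genes tested, 1.44% were called higher and 2.66% lower. Relative to the library median, 8 of the 9 rose, where 11.5% of all genes were called higher and 8.19% lower, and Cps1 at 0.29 ± 0.11 (SE, adjusted p = 0.066) did not. All 5 treated livers lay above all 8 vehicle livers for Otc, Fbp1 and Hal as deposited (1.23% of all genes), and for Otc, Pck1 and Fbp1 relative to the median (3.69% of all genes). Without WUSTL0717 library 2 or without library 3, limma called 0 of the 9 as deposited, where 7 had an unadjusted p under 0.05 with all libraries (17.2% of all genes did). WUSTL0717 library 3 had the highest Alb of its group, 9.87 against 9.01 to 9.44, and the highest summed level of 6 hepatocyte markers, 2116 against 1355 to 1668 in the other 4. Relative to the median, the count was 5 without WUSTL0717 library 2 and 3 without library 3. In these fits 1385 and 1226 of all genes were called higher, against 1830 with all libraries. Without SBR vehicle library 2 the count was 6 (1815 of all genes), and without SBR vehicle library 7 it was 7 (1628 of all genes). The count as deposited was 2 without either of these SBR vehicle libraries. The SBR vehicle livers enter both comparisons, so the differences of opposite sign are not independent of each other.

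**Figure D1:**
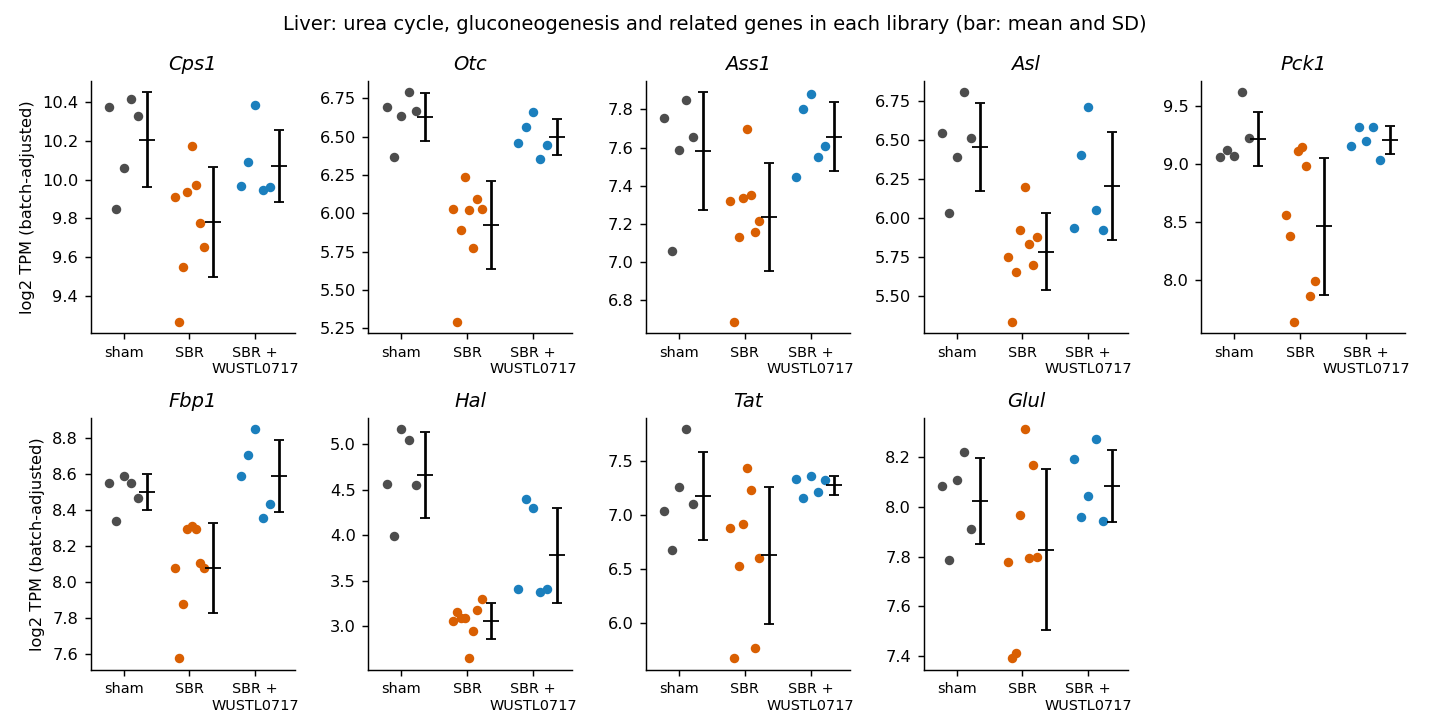
Log2 TPM of the 9 genes in each liver library, 1 point a library in sham vehicle (n = 5), SBR vehicle (n = 8) and SBR WUSTL0717 (n = 5); the bar gives the mean and SD, and each panel has its own axis that does not start at 0. Hal separates sham from SBR vehicle most widely, Pck1 and Tat spread most within SBR vehicle, and SBR vehicle library 2 is the lowest of its group in 7 panels.

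**Figure D2:**
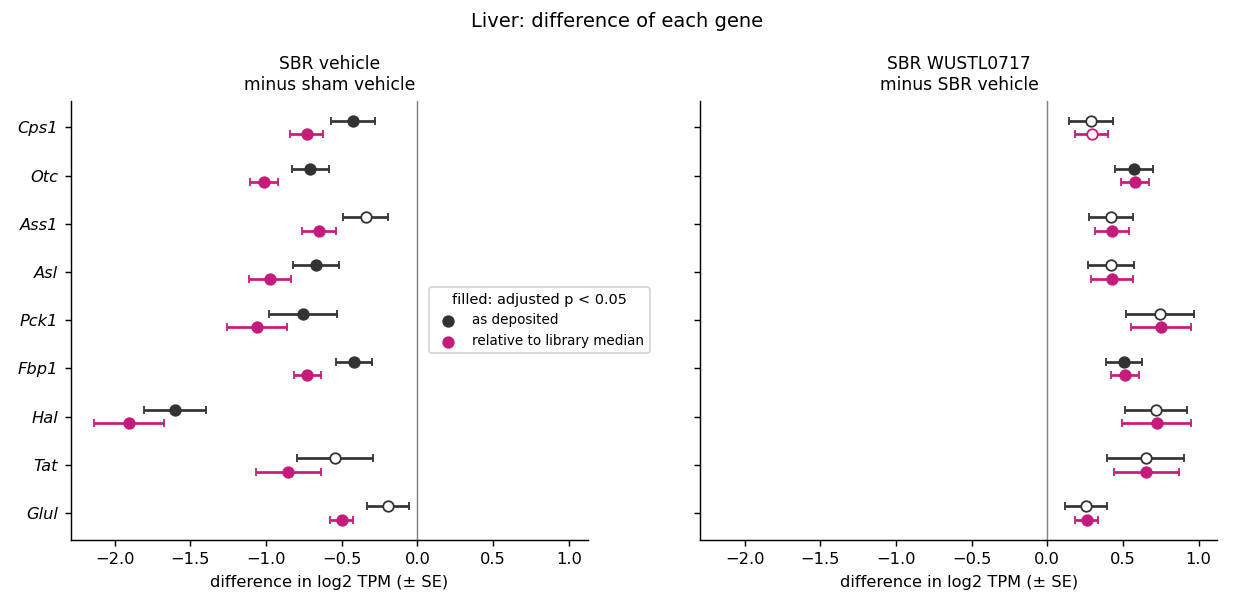
Difference in log2 TPM with its SE for each gene, as deposited (black) and relative to the library median (magenta), for SBR vehicle minus sham vehicle (left) and SBR WUSTL0717 minus SBR vehicle (right). Filled points passed an adjusted p of 0.05: 6 and 9 genes on the left, 2 and 8 on the right.

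The urea cycle starts in the mitochondrion, where Cps1 makes carbamoyl phosphate from ammonia. Cps1 (chromosome 1, 67123026 to 67231259, GRCm38) stood at 10.37, 9.85, 10.06, 10.42 and 10.33 in the sham livers. After SBR it ran from 9.27 through a median of 9.84 to 10.17 with vehicle, and with WUSTL0717 it stood at 9.97, 10.09, 10.38, 9.95 and 9.96. Sham and SBR vehicle overlapped, with 4 of 8 SBR vehicle livers below the lowest sham liver. Cps1 fell by 0.42 ± 0.14 after SBR (SE, adjusted p = 0.0233), and by 0.73 ± 0.11 relative to the library median (adjusted p = 2.5e-05). The call as deposited did not hold without sham library 1, 4 or 5 (highest adjusted p = 0.0651). With WUSTL0717 the difference from SBR vehicle was 0.29 ± 0.14 (adjusted p = 0.314).

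Otc joins carbamoyl phosphate to ornithine. Otc (chromosome X, 10252305 to 10321024) stood at 6.69, 6.37, 6.63, 6.79 and 6.66 in the sham livers, ran from 5.29 through 6.03 to 6.24 after SBR with vehicle, and stood at 6.46, 6.56, 6.66, 6.35 and 6.45 with WUSTL0717. Every SBR vehicle liver was below every sham and every treated liver, while treated and sham livers overlapped. Otc fell by 0.71 ± 0.12 after SBR (adjusted p = 0.000159) and rose by 0.57 ± 0.12 with WUSTL0717 against SBR vehicle (adjusted p = 0.0163). The exact permutation p was 0.000777 for both, the smallest that 1287 splits of 8 against 5 livers can give. Among the 9 genes, Otc had the lowest adjusted p against SBR vehicle, yet the call was lost without WUSTL0717 library 2 (adjusted p = 0.0605) or library 3 (0.0688).

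Ass1 and Asl are the cytosolic steps that make argininosuccinate and split it into arginine and fumarate. Ass1 (chromosome 2, 31470207 to 31520672) stood at 7.75, 7.06, 7.59, 7.85 and 7.65 in sham livers, ran from 6.69 through 7.27 to 7.70 after SBR with vehicle, and stood at 7.45, 7.80, 7.88, 7.55 and 7.61 with WUSTL0717. Sham and SBR vehicle values overlapped, and the difference of -0.34 ± 0.15 missed the threshold (adjusted p = 0.0661), while relative to the library median Ass1 fell by 0.65 ± 0.11 (adjusted p = 0.000121). Asl (chromosome 5, 130011258 to 130029247) stood at 6.54, 6.03, 6.39, 6.80 and 6.51 in sham livers, ran from 5.34 through 5.80 to 6.20 after SBR with vehicle, and stood at 5.94, 6.41, 6.71, 6.05 and 5.92 with WUSTL0717. SBR vehicle livers were below the lowest sham liver in 7 of 8 cases, and of the treated livers 2 and 3 were near sham while 1, 4 and 5 were near the upper SBR vehicle values. Asl fell by 0.67 ± 0.15 after SBR (adjusted p = 0.00185). Both genes were 0.42 ± 0.15 higher with WUSTL0717 than with vehicle as deposited, which did not pass the test (adjusted p = 0.122 for Ass1 and 0.144 for Asl). Relative to the median the difference of both was 0.43, and both passed (adjusted p = 0.013 and 0.0373).

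Pck1, the cytosolic phosphoenolpyruvate carboxykinase, commits carbon to gluconeogenesis. Pck1 (chromosome 2, 173153048 to 173159273) stood at 9.07, 9.12, 9.07, 9.62 and 9.23 in sham livers. The SBR vehicle livers were at 8.56, 8.39, 7.64, 9.12, 9.15, 8.99, 7.87 and 8.00, and the treated livers at 9.16, 9.32, 9.20, 9.32 and 9.04. SBR vehicle livers 3, 7 and 8 were the lowest of their group, whereas livers 4 and 5 lay within the sham range, and the SD was 0.59 with vehicle against 0.23 in sham and 0.12 in treated livers. Pck1 fell by 0.76 ± 0.22 after SBR (adjusted p = 0.0111). Its difference of 0.74 ± 0.22 with WUSTL0717 did not pass as deposited (adjusted p = 0.0702), and it rose by 0.75 ± 0.20 relative to the median (adjusted p = 0.0128).

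Fbp1, fructose-bisphosphatase, is a later control step of the same pathway. Fbp1 (chromosome 13, 62864753 to 62888282) stood at 8.55, 8.34, 8.59, 8.55 and 8.46 in sham livers, ran from 7.58 through 8.09 to 8.31 after SBR with vehicle, and stood at 8.59, 8.70, 8.85, 8.35 and 8.43 with WUSTL0717. All SBR vehicle values were below all sham and all treated values, and the highest SBR vehicle livers lay close to the lowest sham and treated ones. Relative to the library median the gap widened, with 5.18 to 5.28 in sham and 4.44 to 4.59 in SBR vehicle livers. Fbp1 fell by 0.42 ± 0.12 after SBR (adjusted p = 0.00844) and rose by 0.51 ± 0.12 with WUSTL0717 against vehicle (adjusted p = 0.0226). The rise lost its call without WUSTL0717 library 1, 2 or 3 (highest adjusted p = 0.0957).

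Hal, histidine ammonia lyase, takes the first step of histidine breakdown and is a periportal enzyme. Hal (chromosome 10, 93488768 to 93519304) stood at 4.56, 3.99, 5.16, 5.05 and 4.55 in sham livers. It ran from 2.65 through 3.09 to 3.30 after SBR with vehicle, and with WUSTL0717 it stood at 3.41, 4.39, 4.30, 3.37 and 3.42. Every treated liver was above every SBR vehicle liver, and treated livers 2 and 3 lay within the sham range while 1, 4 and 5 lay below it. Hal fell by 1.60 ± 0.20 after SBR (adjusted p = 5.25e-06), a call that held in all 18 fits that left out a library (highest adjusted p = 3.22e-05). It was 0.72 ± 0.20 higher with WUSTL0717 than with vehicle, just outside the threshold (adjusted p = 0.0537, exact permutation p = 0.000777), and passed relative to the median (adjusted p = 0.0336). Against sham, Hal remained lower in treated livers, by -0.88 ± 0.23 (adjusted p = 0.00881).

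Tat starts tyrosine breakdown and is induced by glucocorticoids. Tat (chromosome 8, 109990437 to 109999803) stood at 7.04, 6.68, 7.26, 7.80 and 7.11 in sham livers, ran from 5.67 through 6.74 to 7.44 after SBR with vehicle, and stood at 7.33, 7.16, 7.37, 7.21 and 7.32 with WUSTL0717. All 3 groups overlapped as deposited, SBR vehicle livers 2 and 7 were the low ones, and the SD of 0.64 with vehicle stood beside 0.41 in sham and 0.09 in treated livers. Neither the difference of -0.55 ± 0.25 after SBR (adjusted p = 0.09) nor that of 0.65 ± 0.25 with WUSTL0717 (adjusted p = 0.174) passed as deposited. Relative to the median, Tat fell by 0.85 ± 0.21 after SBR (adjusted p = 0.00311) and rose by 0.66 ± 0.21 with WUSTL0717 (adjusted p = 0.039).

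Glul, the pericentral glutamine synthetase, had the smallest differences of the 9 after SBR and with WUSTL0717. Glul (chromosome 1, 153899944 to 153909723) stood at 8.08, 7.78, 8.11, 8.22 and 7.91 in sham livers, ran from 7.39 through 7.80 to 8.31 after SBR with vehicle, and stood at 8.19, 7.96, 8.04, 8.27 and 7.94 with WUSTL0717. The 3 groups overlapped as deposited, with a difference of -0.19 ± 0.14 after SBR (adjusted p = 0.273) and of 0.25 ± 0.14 with WUSTL0717 (adjusted p = 0.373). Relative to the median, sham livers lay at 4.69 to 4.85, above all SBR vehicle livers at 4.08 to 4.60, and Glul fell by 0.50 ± 0.08 (adjusted p = 3.7e-05). On that scale it rose by 0.26 ± 0.08 with WUSTL0717 (adjusted p = 0.0242).

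**Figure D3:**
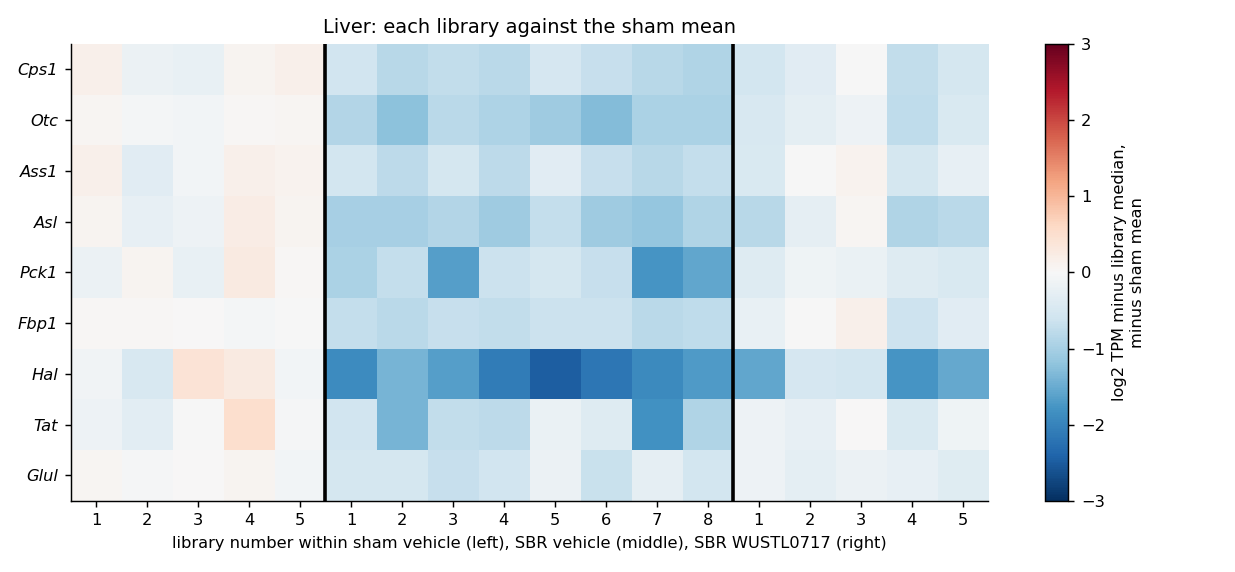
Each cell is the log2 TPM of a gene in a liver library, minus the library median and minus the sham mean of that gene on the same scale; libraries are numbered within sham vehicle (left), SBR vehicle (middle) and SBR WUSTL0717 (right), blue being below and red above the sham mean. SBR vehicle libraries are blue throughout, most deeply for Hal, and treated libraries 2 and 3 are paler than 1, 4 and 5 for most genes.

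Compared with sham, livers with SBR and WUSTL0717 differed in Hal alone as deposited, where 0.906% of all genes were called lower and 27.9% higher. The other 8 differences ran from -0.25 ± 0.17 for Asl (adjusted p = 0.255) to 0.10 ± 0.28 for Tat (adjusted p = 0.788), and a p that misses the threshold does not show that the levels were alike. Relative to the library median, all 9 differences were negative and 4 genes were called lower, where 8.93% of all genes were called lower and 10.7% higher. These were Cps1 (-0.44, adjusted p = 0.0166), Otc (-0.43, adjusted p = 0.00613), Asl (-0.55, adjusted p = 0.017) and Hal (-1.18, adjusted p = 0.00315). Ass1, Fbp1, Tat and Glul thus had positive differences as deposited and negative ones relative to the median. Leaving out WUSTL0717 library 4 reduced these 4 calls to 2, and leaving out library 5 to 3. In these fits 891 and 1017 of all genes were called lower, in place of 1420.

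The other genes of these pathways did not all move with the 9. Of 3 other urea cycle genes tested, Slc25a13, the aspartate/glutamate carrier, fell after SBR (-0.34 ± 0.14, adjusted p = 0.0498). The activator synthase Nags and the ornithine carrier Slc25a15 were at -0.12 and -0.17 (adjusted p = 0.456 and 0.262), and relative to the median all 3 fell, by 0.43 to 0.65. None of the 3 was called with WUSTL0717 against vehicle as deposited, and Slc25a15 and Slc25a13 rose relative to the median (0.35 and 0.44).

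Of 9 other gluconeogenesis genes, 2 fell and 1 rose after SBR as deposited. Slc37a4, the glucose 6-phosphate transporter, fell by 0.46 ± 0.15 (adjusted p = 0.0195), and cytosolic malate dehydrogenase Mdh1 by 0.42 ± 0.13 (adjusted p = 0.0151). Pck2, the mitochondrial counterpart of Pck1, went the other way and rose by 1.34 ± 0.14 (adjusted p = 9.13e-07). With WUSTL0717 it fell by 0.53 ± 0.14 against SBR vehicle (adjusted p = 0.0444), and it remained 0.80 ± 0.16 above sham (adjusted p = 0.00182). Pck2 kept these 3 directions and calls relative to the median. G6pc, which releases free glucose, lay at -0.54 ± 0.21 after SBR, and pyruvate carboxylase Pcx at -0.10 ± 0.12 (adjusted p = 0.52), neither of them called as deposited, although both fell relative to the median, by 0.84 and 0.41. Ldha was called in treated livers against sham (0.45 ± 0.16, adjusted p = 0.0464), but not relative to the median (0.14, adjusted p = 0.347). In all, 6 of the 9 fell and 1 rose after SBR relative to the median. With WUSTL0717 against SBR vehicle, 7 of the 9 means were higher and 2 lower, and Pck2 was the only call as deposited. G6pc (0.61, adjusted p = 0.0328), Slc37a4 (0.40), Pcx (0.35) and Mdh1 (0.43) were called higher there relative to the median, and Pck2 lower.

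Among 7 glycolysis and glucose uptake genes, glycogen synthase Gys2 (-0.60 ± 0.17, adjusted p = 0.00785) and glycogen phosphorylase Pygl (-0.42 ± 0.13, adjusted p = 0.0134) fell after SBR. Pdk4, a kinase that blocks pyruvate oxidation and is induced by fasting, rose by 2.09 ± 0.36 (adjusted p = 0.00013) and stayed above sham with WUSTL0717 (1.60 ± 0.40, adjusted p = 0.00748). None of the 7 was called between the SBR groups as deposited, and Slc2a2, Gys2 and Pygl rose relative to the median. Pyruvate kinase Pklr, phosphofructokinase Pfkl and the glucose transporter Slc2a2 were at -0.42, 0.14 and -0.13 after SBR (adjusted p = 0.0694, 0.265 and 0.518), and all 3 fell relative to the median, by 0.73, 0.17 and 0.43.

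Other genes of amino acid breakdown also fell after SBR. All 7 other histidine and tyrosine breakdown genes fell, with a median of -0.41: Uroc1, Amdhd1 and Ftcd, which follow Hal, by 0.48, 0.41 and 0.66, and Hpd, which follows Tat, by 0.90 ± 0.14 (adjusted p = 5.06e-05). Hgd, Gstz1 and Fah completed the 7. With WUSTL0717, Hpd was the gene of this list that rose as deposited (0.56 ± 0.14, adjusted p = 0.0316), and 6 rose relative to the median. Of 10 other amino acid breakdown genes, 7 fell after SBR, with a median of -0.59, led by serine dehydratase Sds at -1.37 ± 0.19 (adjusted p = 1.74e-05). The others were Oat, Gls2, Tdo2, Prodh, Aass and Cth. With WUSTL0717, Sds (0.81 ± 0.19), Tdo2 (0.59 ± 0.14), Gls2 (0.53 ± 0.14) and Cth (0.54 ± 0.15) rose, with adjusted p from 0.0243 to 0.0484. Relative to the median, all 10 fell after SBR and 5 rose with WUSTL0717 against vehicle, while 6 were called below sham in treated livers. Of 6 amino acid transporter genes, Slc38a3, Slc38a4, Slc7a2 and Slc1a2 fell after SBR, by 0.34 to 0.53, and the mitochondrial glutamate carrier Slc25a22 rose by 0.57 ± 0.14 (adjusted p = 0.00333). Slc38a2 was at -0.10, and none of the 6 was called with WUSTL0717 against vehicle as deposited. Relative to the median, 5 of the 6 fell and 1 rose after SBR, and 2 rose with WUSTL0717 against vehicle.

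Of 13 glucagon and glucocorticoid axis genes, Klf15 (-0.63 ± 0.14, adjusted p = 0.0016), Cebpa (-0.48 ± 0.13, adjusted p = 0.00733) and the glucocorticoid target Tsc22d3 (-0.70 ± 0.22, adjusted p = 0.0161) fell after SBR. Klf15, a transcription factor for amino acid breakdown and gluconeogenesis genes, rose with WUSTL0717 (0.55 ± 0.14, adjusted p = 0.0344). Igfbp1 (1.73 ± 0.40, adjusted p = 0.00177) and Irs2 (0.41 ± 0.16, adjusted p = 0.041) rose after SBR, both being genes that insulin lowers. Irs2 did not pass relative to the median (0.11, adjusted p = 0.581). The glucagon receptor Gcgr, Ppargc1a and Foxo1 were not called as deposited (adjusted p = 0.988, 0.594 and 0.195), and fell relative to the median, by 0.31, 0.43 and 0.51. On that scale 9 of the 13 fell and 1 rose after SBR, and 5 rose with WUSTL0717.

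Markers of both zones of the lobule were measured beside the 9 genes. Sds, Gls2 and Uroc1 among the periportal markers, and Oat and Slc1a2 among the pericentral ones, were already counted in the lists above. Of 6 periportal markers, Sds, Cyp2f2 (-1.11 ± 0.16, adjusted p = 1.56e-05), Gls2 and Uroc1 fell after SBR, and Sds, Cyp2f2 and Gls2 rose with WUSTL0717, Cyp2f2 by 0.96 ± 0.16 (adjusted p = 0.00609). Hsd17b13 and Hsd17b6 were both at 0.10 after SBR and were not called, though Hsd17b13 fell by 0.20 relative to the median (adjusted p = 0.0388). As deposited, Hsd17b13 was higher than in sham with WUSTL0717 (0.49 ± 0.16, adjusted p = 0.0323), which did not pass relative to the median (0.19, adjusted p = 0.142). Of 10 pericentral markers, Cyp2e1 (-0.92 ± 0.18, adjusted p = 0.000453), Cyp1a2 (-0.58 ± 0.11, adjusted p = 0.000413), Oat, Slc1a2 and Rgn fell and the Wnt target Axin2 rose (1.18 ± 0.22, adjusted p = 0.000253). Rhbg, Lgr5, Gulo and Tbx3 lay at 0.29, 0.26, 0.10 and 0.03 and were not called as deposited, so that 5 of the 10 means were higher and 5 lower, while Gulo fell by 0.21 relative to the median. None of the 10 was called with WUSTL0717 against vehicle as deposited, and Cyp2e1, Cyp1a2 and Rgn rose relative to the median. Whether periportal and pericentral genes differed in their change was not tested.

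Markers of hepatocytes and of other liver cells were read beside the 9 genes. Of 6 hepatocyte markers, Serpina1c (-1.64 ± 0.17, adjusted p = 7.37e-07) and Apoh (-0.46 ± 0.14, adjusted p = 0.0151) fell after SBR as deposited, Alb, Ttr and Apoa2 lay at -0.24, -0.28 and -0.37, and the median of the 6 was -0.38. Relative to the library median all 6 fell, with a median of -0.69 beside -0.85 for the 9 described genes. Without SBR vehicle library 2, Alb lay at -0.08 and Ttr at -0.14 as deposited, the median of the 6 was -0.26 and 3 were called lower, Fgb being the third, while relative to the median all 6 still fell (median -0.63). With WUSTL0717 against SBR vehicle the 6 had a median difference of 0.33 and none was called as deposited, while Apoa2, Serpina1c and Apoh were called higher relative to the median. The summed linear level of the 6 ran from 1461 to 1911 in sham, from 682 to 1563 in SBR vehicle (1254 to 1563 without library 2) and from 1355 to 2116 in treated livers. All 6 cholangiocyte markers rose after SBR, among them Krt19 (2.14 ± 0.28), Krt7, Epcam and Spp1 (3.31 ± 0.24), and their summed level of 65.8 to 167 in sham stood at 367 to 751 in SBR vehicle and at 209 to 489 in treated livers. With WUSTL0717, 5 of the 6 fell, Krt19 at -0.68 being the exception. Of 6 stellate cell and fibroblast markers, 5 rose after SBR, led by Col1a1 (3.36 ± 0.23), and Col1a1, Col3a1 and Pdgfrb fell with WUSTL0717, while Acta2 was called in neither (adjusted p = 0.996 and 0.924). Their summed level was 97.2 to 157 in sham, 321 to 543 in SBR vehicle and 189 to 352 in treated livers. Treated libraries 4 and 5 had the highest sums of their group, 489 and 392 for cholangiocyte and 352 and 308 for stellate cell markers. Treated libraries 1 to 3 had 209 to 226 and 189 to 215. As deposited, libraries 4 and 5 had the lowest value of their group for 4 and 3 of the 9 genes. No marker of these 3 lists was at 0 in any group, and their part in the differences of the 9 genes was not tested.

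For further cell types the calls are given as deposited. Of 6 Kupffer cell and macrophage markers, Cd68 rose and Timd4 fell after SBR, and Clec4f rose with WUSTL0717, while Vsig4 and Adgre1 were not called. Of 5 endothelial markers, Lyve1 rose after SBR and Pecam1 and Lyve1 were above sham in treated livers, with Stab2 and Kdr not called. Of 4 lymphocyte and neutrophil markers, Ptprc and S100a9 rose after SBR, and Cd3e and Cd79a were not called. Of 5 intestinal epithelium markers, Vil1 rose after SBR and fell with WUSTL0717, while Fabp2, Sis, Lct and Cdx2 were not called in either. None of 5 pancreatic acinar markers (Prss2, Cpa1, Cela1, Ctrb1 and Pnlip) was called in a liver comparison as deposited. After subtraction of the library median, the calls after SBR were 1 higher and 3 lower for the macrophage list (Clec4f and Vsig4 added to Timd4), 1 and 2 for the endothelial list (Stab2 and Kdr lower), and 1 and 3 for the intestinal list (Sis, Lct and Cdx2 lower). Cela1 was the 1 acinar marker called lower on this scale (-0.53, adjusted p = 0.0495), in treated livers against sham too. With WUSTL0717 against SBR vehicle, 3 of the 6 macrophage markers (Clec4f, Vsig4 and Timd4) were called higher after this subtraction, and the list's median difference was 0.51, beside 0.51 for the 9 genes. The part of these cells in the differences of the 9 genes was not tested.

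**Figure D4:**
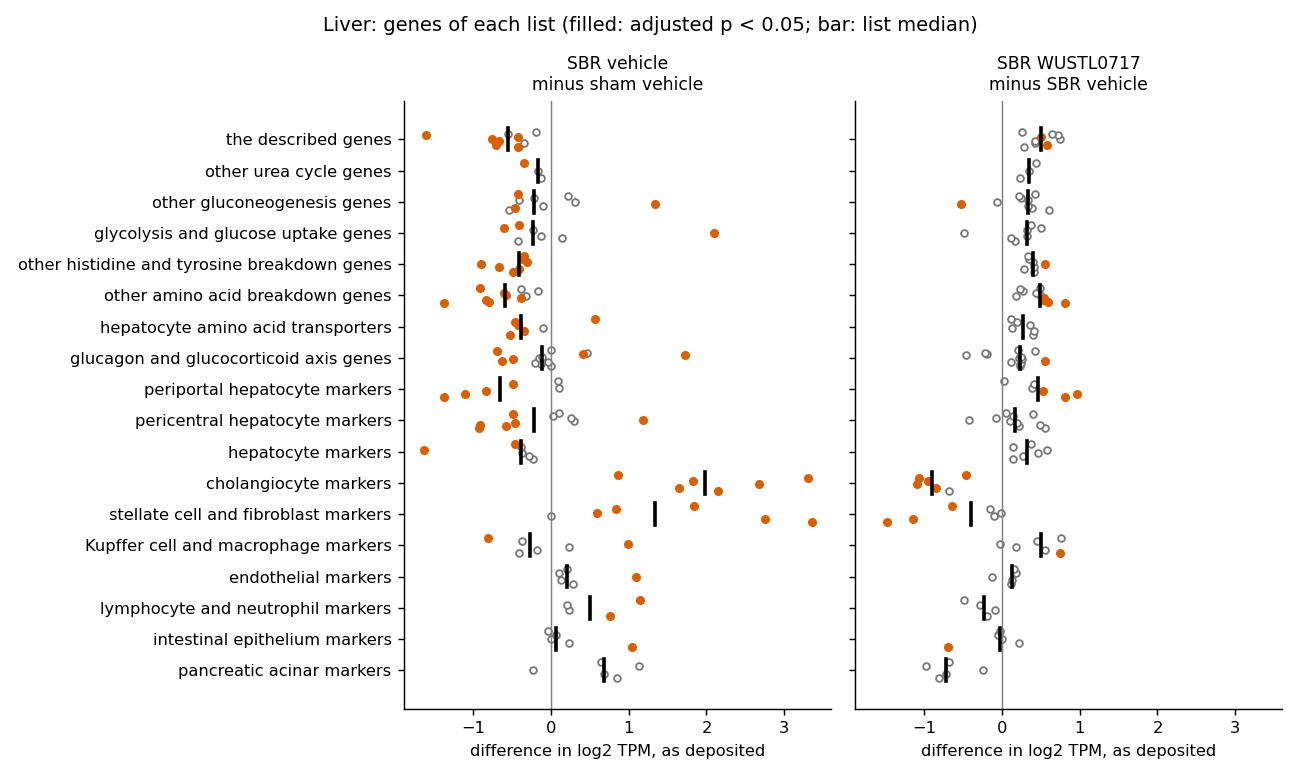
Difference in log2 TPM as deposited for every tested gene of the 18 lists in the liver, SBR vehicle minus sham vehicle (left) and SBR WUSTL0717 minus SBR vehicle (right); filled points were called, and the bar is the median of the list. The amino acid breakdown lists lie left of 0 after SBR and right of 0 with WUSTL0717, and the cholangiocyte list and the medians of the stellate cell list lie on the opposite sides.

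Genes that varied most like each of the 9 from liver to liver were sought among 12375 named genes, by Pearson's r of the deviations from the group means over the 18 livers, each library centred on its median. Libraries share their RNA quality and cell make-up in these values, so r is a description. For the urea cycle genes they were Bckdha (0.936) and Hpd (0.932) for Cps1, Cyp2j5 (0.878) and Gcsh (0.870) for Otc, Asl (0.886) and Selenbp1 (0.885) for Ass1, and Coq9 (0.941) and Aldh1l1 (0.937) for Asl. Hal was most like Amdhd1 (0.926), a later enzyme of histidine breakdown, and Mcat (0.910). Fbp1 was most like Sephs2 (0.913) and Serpinf1 (0.887), and Pck1 like Kat6b (0.868) and Ctcflos (0.856). Tat was most like Dusp1 (0.833) and Eif4enif1 (0.831), and Glul like Slc1a2 (0.806), a glutamate transporter of the same pericentral cells. Iglj3p ranked above Slc1a2 for Glul (0.833), but its deposited value was the same in 16 of the 18 livers, so its r says little of likeness from liver to liver. Of these genes, Cyp2j5, Hpd, Sephs2 and Serpinf1 both fell after SBR and rose with WUSTL0717 against vehicle, Cyp2j5 by 0.75 ± 0.14 (adjusted p = 0.000256) and 0.59 ± 0.14 (adjusted p = 0.0215).

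In the intestine, where Cps1, Otc and Ass1 serve citrulline synthesis and handling in enterocytes, none of the 9 genes was called after SBR or with WUSTL0717 against vehicle. In the duodenum, limma called 0 of the 9 after SBR and 0 with WUSTL0717, where 0.0% and 0.258% of 15093 genes were called. At an unadjusted p under 0.05 these counts were 4 and 0, where 16.1% and 5.31% of all genes passed. Duodenal Pck1 was at 4.21 to 6.06 in sham and at 6.11 to 8.45 after SBR with vehicle, without overlap (2.41 ± 0.73, adjusted p = 0.273), as for 3.41% of all duodenal genes in this direction. Cps1 at -1.77 ± 0.69 and Ass1 at -1.33 ± 0.57 had overlapping groups there (adjusted p = 0.281 and 0.296). These 3 duodenal genes were called when libraries were weighted (adjusted p of 0.0248 to 0.0379) and when SBR vehicle library 1 was left out (0.0455 to 0.0496). The share of all duodenal genes called in these fits is not given here, so the 3 calls cannot be set against it.

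In the ileum, limma called 0 of the 9 after SBR and 0 with WUSTL0717, where 0.349% and 0.0697% of 15772 genes were called, and 3 and 2 had an unadjusted p under 0.05, as did 8.46% and 6.87% of all genes. Ileal Fbp1 was at 3.85, 4.62 and 4.12 in sham and at 7.71, 5.89, 5.99 and 8.42 after SBR, a difference of 2.80 ± 0.59 (adjusted p = 0.0831) with an exact permutation p of 0.0286, the smallest that 35 splits can give. The WUSTL0717 libraries were at 7.73, 8.57, 8.77 and 9.12, and against sham Fbp1 was called higher there, by 4.35 ± 0.59 (adjusted p = 0.00462), the only call among the 9 genes when treated and sham intestine were compared (0.802% of all genes were called in the duodenum and 2.17% in the ileum). This comparison was added after seeing the data. The call held in all 11 fits that left out 1 library (highest adjusted p = 0.0351) and in 10 of 11 other alternatives, and it was lost in the unmoderated test of 2 groups (adjusted p = 0.0545). Ileal Glul (2.08 ± 0.59, adjusted p = 0.221) and Tat (2.13 ± 0.71, adjusted p = 0.326) also lay above all sham values in all 4 SBR vehicle libraries, which makes 3 of the 9 genes, where 6.73% of all ileal genes separated upward in this way. After the batch adjustment, 6 hepatocyte markers summed to 370 to 7597 in the intestinal libraries (linear scale). How strongly a gene is expressed in the ileum can therefore not be read from these values. Fbp1 passed with library weights (adjusted p = 0.0202) or a filter at 3 (0.0421), and Glul with library weights (0.0355). The share of all ileal genes called in these fits is not given here either. The difference between the effects of SBR in ileum and duodenum did not pass for any of the 9, the lowest adjusted p being 0.131 for Glul.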

How the data were processed

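RNA sequencing values of 40 mouse libraries were used, 18 of liver and 22 of intestine. Per the labels and the study's methods, alignment was by STAR and counting by featureCounts on Ensembl release 101 (GRCm38), followed by TPM, log2 and ComBat. The labels' batch tag separates intestine from liver, whereas the methods word the correction as one between experimental groups, and whether group was in its model is not given in the sources used here. The authors deposited the resulting log2 TPM values. ComBat rescales each gene within a batch, so the size of a difference may be scaled by gene, and levels of tissues are not comparable. In each tissue, limma 3.58.1 (R 4.3.3) was fitted to its 3 groups over all genes whose mean log2 TPM reached 1, using a variance trend, and p-values were adjusted by Benjamini-Hochberg. For single genes, the means of 2 groups were compared with two-sided exact permutation tests over all splits of their libraries in Python 3.11.15. SE is that of the fit, and the test was tested on simulated data. Nothing in the labels ties libraries to animals beyond their separate names, so p-values measure the spread between these libraries. The 9 genes, the other lists and the rule for named genes (all 9 genes, the first 3 genes and every called gene of each list, and the 2 most similar genes) were chosen with earlier results of these data known. Some genes of these lists are not reported here and enter no count over a list. Alternatives were no filter, a filter of 3, pseudocounts of 5 and 0.1, library centring, quantile normalization, no trend, an unmoderated test of 2 groups, library weights, the compared groups alone, the replicate number as a block, and leaving out each library. Leaving out libraries on the centred scale, and all alternatives in the intestine, were added after seeing the data.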

Additional observations from a re-analysis of the deposited data

Results flagged for a closer look

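Fbp1 lay on opposite sides of sham in 2 tissues after SBR, and it passed the test in the liver only. In the liver all 8 SBR vehicle values lay below all 5 sham values (-0.421, adjusted p = 0.00844), and in the ileum all 4 SBR vehicle values lay above all 3 sham values (2.80, adjusted p = 0.0831). The difference between the tissues was not tested. The labels' batch tag separates liver from intestine, and the batch adjustment may have scaled the differences in each tissue.

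In the duodenum with SBR and WUSTL0717, Asl in library 2 was at 3.71, far from the 4.59 to 4.73 of the other 3 libraries. It was the sample far from its group found in 63 checked sets of values of 1 gene in 1 group, where chance gives about 1 in 20 sets.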

How the results depend on the processing

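Of the 6 calls after SBR, an unmoderated test of the 2 groups gave 4, and leaving out a library gave 5 to 8 (5 without sham library 1, 4 or 5, and 8 without SBR vehicle library 5). Of the 2 calls with WUSTL0717 against vehicle, library centring gave 8, quantile normalization 4, library weights 4, the unmoderated test 0, the compared groups alone 0 and the replicate block 1, and leaving out a library 0 to 3. The single call of WUSTL0717 against sham became 4 with centring, 3 with quantile normalization, 4 with library weights and 0 with the unmoderated test, and stayed at 1 whichever library was left out. Relative to the median, leaving out a library left the 9 calls after SBR at 9, and gave 3 to 9 in place of 8 for WUSTL0717 against vehicle and 2 to 5 in place of 4 against sham. In the duodenum after SBR, library weights called 3 in place of 0, and leaving out a library 0 to 3. In the ileum after SBR, the filter at 3 called 1 and library weights 2 in place of 0. The shares of all intestinal genes called under these settings are not given here.

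Differences of WUSTL0717 from sham changed sign for Ass1 (-0.22 with centring, -0.19 with quantile normalization, -0.065 with weights, and -0.054 to 0.14 when a library was left out, lowest without sham library 2), Fbp1 (-0.21 with centring, -0.12 with quantile normalization), Tat (-0.20, -0.17, and -0.021 to 0.26 when a library was left out, lowest without sham library 2) and Glul (-0.24 and -0.17). Pck1 ran from -0.051 to 0.088 when a library was left out, highest without sham library 4. Duodenal Ass1 with WUSTL0717 against vehicle turned to -0.013 with quantile normalization and ran from -0.17 to 0.64 when a library was left out, lowest without SBR vehicle library 3. Ileal Glul ran from -0.51 to 0.37, highest without SBR vehicle library 4. When a library was left out, the sign also changed for other intestinal differences. With WUSTL0717 against vehicle these were duodenal Tat and ileal Cps1, Ass1 and Asl. After SBR they were duodenal Otc, Asl, Fbp1 and Tat, and ileal Cps1, Ass1 and Hal. With WUSTL0717 against sham they were duodenal Hal and Tat, and ileal Cps1, Ass1 and Tat. None of these was called in the main test, and the causes were not tested. For single genes in the liver, 253 values kept direction and call under the other alternatives, 26 gained and 9 lost a call and 9 changed sign.

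Over all genes, the calls after SBR numbered 6663, and 10462 with library weights. For WUSTL0717 against vehicle they numbered 652, with 3133 under centring, 2635 under quantile normalization, 2819 with weights, 334 with the filter at 3, 148 for the compared groups alone and 0 for the unmoderated test. Against sham they numbered 4580, and 8387 with weights. With the replicate block, 5 of the 9 genes were called after SBR and 1 against sham, Cps1 (adjusted p = 0.0556) losing its call after SBR and Fbp1 (0.0673) with WUSTL0717. Of 15 same-numbered pairs of libraries, 2 correlated over 0.1 (-0.197 to 0.173) and 3 correlated best with their own number. This check showed no pairing by number, and it cannot exclude one.

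Depth is unknown, and 5 to 8 libraries a group limit the precision in the liver, 3 or 4 in the intestine. The batch adjustment acts on each gene's spread, cell make-up was not separated from expression, and the median difference of all genes after SBR was above 0 as deposited.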
